A study of Mus musculus with 12 samples.

Results

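Transcripts of 10 genes of the unfolded protein response were measured in mouse colonic mucosa. They were taken by symbol from the deposited gene tables, and each of the 10 matched 1 row of the 38087 genes with an Ensembl identifier. The libraries were 6 of the Sgo1-/+ genotype and 6 of wild type. Sgo1 encodes shugoshin 1, a protector of cohesion between sister chromatids. Both genotypes had received the colon carcinogen azoxymethane (4 mg/kg, 2 doses a week) from week 8 to week 12 of life and were sampled at an age of 9 months, so that every value below comes from carcinogen-treated colon and untreated colon was not analysed here. The labels call the tissue colonic mucosa and do not say that each library came from a separate mouse, so p-values measure the spread between these libraries. The Sgo1 transcript, listed as Sgol1, had a mean level (CPM, counts scaled to the TMM-adjusted library size) of 2.33 ± 0.41 in Sgo1-/+ libraries and 3.65 ± 1.79 in wild type libraries (SD, n = 6 each). Its log2 change (always Sgo1-/+ over wild type) was -0.67 ± 0.32, where ± on a log2 change is the SE, and its adjusted p was 0.551 in edgeR's quasi-likelihood test with Benjamini-Hochberg adjustment.

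The unfolded protein response is the signalling that secretory cells use when unfolded proteins collect in the endoplasmic reticulum (ER). Its sensors are IRE1, PERK and ATF6. IRE1 splices the mRNA of the transcription factor XBP1. PERK favours translation of ATF4, which in turn induces CHOP. ATF6 is cleaved in the Golgi into a transcription factor. In the colon the goblet cells, which fold and export large amounts of mucin, carry a form of IRE1 of their own, and the targets of these arms are chaperones, folding enzymes and the machinery that removes misfolded proteins.

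Promoters were read from RefSeq, build GRCm38.p6, for 8 of the 10 genes (all but Creb3l1 and Ern2), each as a window of 300 bases. Positions are counted from a start taken at the same base of every window, with most of the window before it. This start can differ from the gene coordinates given below. The 3 printed here are those with a match to an ER stress element, the kind of site through which ATF6 and XBP1 are known to act, and they belong to the 2 most abundant chaperones and to the gene with the smallest p-value below. Capitals mark matches, on either strand, to the ER stress element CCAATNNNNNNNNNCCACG, the shorter ER stress element II (the longest run of capitals in Herpud1), the unfolded protein response element core TGACGTG and the C/EBP-ATF composite core TGATGNAA.
Hspa5, chr2:34771840-34772139, plus strand: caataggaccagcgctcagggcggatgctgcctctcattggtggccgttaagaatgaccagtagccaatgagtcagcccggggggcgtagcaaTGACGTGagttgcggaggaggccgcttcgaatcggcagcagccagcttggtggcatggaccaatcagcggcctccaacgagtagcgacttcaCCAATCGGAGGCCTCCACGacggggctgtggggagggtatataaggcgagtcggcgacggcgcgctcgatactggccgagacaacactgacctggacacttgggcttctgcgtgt
Hsp90b1, chr10:86705395-86705694, minus strand: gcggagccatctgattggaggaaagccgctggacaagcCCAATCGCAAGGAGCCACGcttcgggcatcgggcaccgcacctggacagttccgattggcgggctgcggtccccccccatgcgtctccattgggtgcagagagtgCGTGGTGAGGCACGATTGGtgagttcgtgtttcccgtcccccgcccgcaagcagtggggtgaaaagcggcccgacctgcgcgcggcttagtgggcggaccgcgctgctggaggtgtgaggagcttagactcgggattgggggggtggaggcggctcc
Herpud1, chr8:94386179-94386478, plus strand: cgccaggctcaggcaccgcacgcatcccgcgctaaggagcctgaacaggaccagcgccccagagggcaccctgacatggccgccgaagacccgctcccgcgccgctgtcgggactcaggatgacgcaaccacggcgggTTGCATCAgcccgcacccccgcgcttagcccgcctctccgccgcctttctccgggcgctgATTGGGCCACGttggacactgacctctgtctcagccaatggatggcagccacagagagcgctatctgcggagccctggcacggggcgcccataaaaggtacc

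The ER stress element was found in Hspa5, where its first base lies 65 bases before the start of the window count, and in 2 copies in Hsp90b1. By the gene start given for Hspa5 below (34771970) this element of Hspa5 lies inside the gene. The ER stress element occurs in 39 of all 32851 promoters of the same length, or 0.119%. ER stress element II was found in Herpud1, 52 bases before the start, and in 0.0365% of all promoters. The unfolded protein response element core of Hspa5 occurs in 2.01% of all promoters, and the composite core of Herpud1, read on the opposite strand, in 3.97%. The letters CCACG, with which both stress elements end, was present in 6 of the 8 promoters and in 32.8% of all promoters. The other promoters, of Xbp1, Atf4, Ddit3, Pdia4 and Dnajb9, held none of the 4 longer motifs in this window. These matches describe the letters of the sequence and were not measured as binding.

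The libraries held 5711553 to 10198304 counts, and the member with the lowest counts, Ddit3, still had at least 78 in each library. All 9 colonic epithelium markers checked were detected, with a summed level of 8647 to 9843 CPM in Sgo1-/+ libraries and 8113 to 10319 CPM in wild type libraries. The 4 most abundant rows (Gm13340, Gm13341, Gm11410 and AY036118) took 14.8% to 42.2% of counts in Sgo1-/+ libraries and 18.3% to 46.5% in wild type libraries. Sgo1-/+ replicate 3 and wild type replicates 3 and 5 stood apart with 42.2%, 46.5% and 43.7%, while the other 9 libraries were at 27.8% or less. In addition 4 libraries (Sgo1-/+ replicates 5 and 6, wild type replicates 1 and 6) carry a suffix in the column name of their file whose meaning is not given, and comparisons were repeated within them and within the other 8.

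All 10 genes passed the filter on low counts, and none passed an adjusted p of 0.05 between the genotypes in edgeR's quasi-likelihood test, against 0.0% of the 13889 genes tested. At an unadjusted p under 0.05, 1 of the 10 was found, or 10% of them, against 9.04% of all genes, so the share is near the background. This was Herpud1, which was lower in Sgo1-/+, as were 4.73% of all genes, while no member was higher, against 4.31% of all genes. DESeq2 called 30 of the 13889 genes, no member among them, and limma-voom called 0. In none of the 10 genes were the genotypes free of overlap, against 0.346% of all genes. The fitted log2 change was positive for 5 members and negative for 5, with a median of -0.01, against -0.01 over all genes. The median size of the change, without its sign, was 0.12 for the members and 0.17 for all genes.

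**Figure D1:**
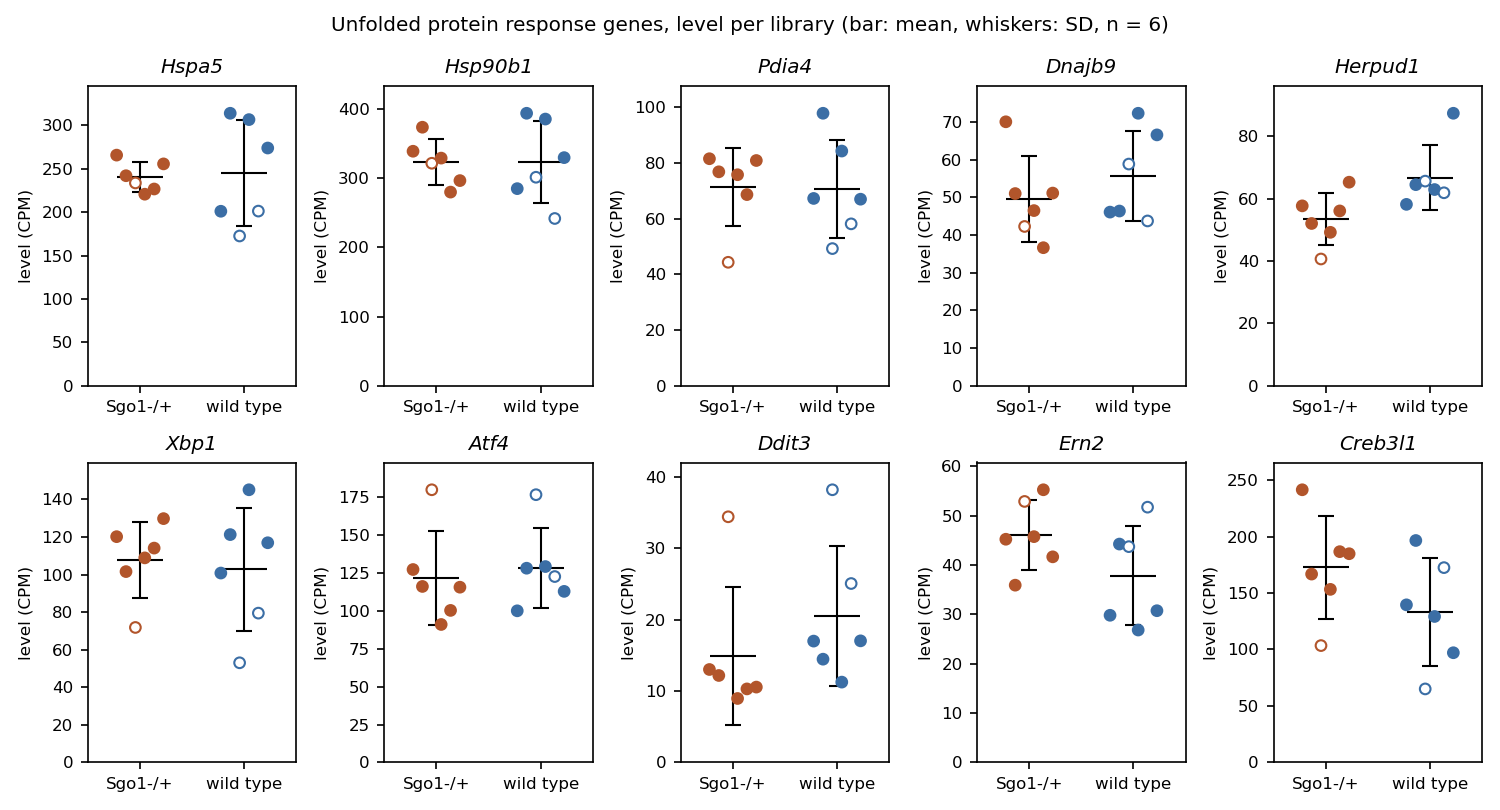
Level in CPM of each of the 10 genes in every library, Sgo1-/+ in orange and wild type in blue, with the mean as a bar and the SD as whiskers (n = 6 each) and each axis starting at 0. Open circles are the 3 libraries in which the 4 most abundant rows took 42.2% or more of the counts. The groups overlap in all 10 panels, and the open circles lie at the top for Ddit3 and at the bottom for Xbp1 and Pdia4.

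Ordered by the mean over all 12 libraries per length, the most abundant member was Hsp90b1, with 80.1 ± 8.15 CPM per kilobase of exon in Sgo1-/+ libraries and 79.98 ± 14.6 in wild type libraries (SD, n = 6 each). It ranked 452 of 13695 genes. Creb3l1 followed at 66.4 ± 17.4 CPM per kilobase in Sgo1-/+ libraries and 51.2 ± 18.5 in wild type libraries, though in wild type alone its mean was below those of Hspa5 and Atf4. Hspa5 came next, at 56.9 CPM per kilobase in Sgo1-/+ libraries and 57.9 in wild type libraries, and then Atf4, at 51.6 in Sgo1-/+ libraries and 54.4 in wild type libraries. Creb3l1, Hspa5 and Atf4 differed from one another by less than the larger of their SDs over libraries. Xbp1 (33.2 in Sgo1-/+, 31.6 in wild type) and Pdia4 (29.7 in Sgo1-/+, 29.4 in wild type) were also within their SDs of one another. Herpud1 was at 22.9 CPM per kilobase in Sgo1-/+ libraries and 28.6 in wild type libraries, Dnajb9 at 19.4 in Sgo1-/+ and 21.8 in wild type, and Ern2 at 15.6 in Sgo1-/+ and 12.8 in wild type. Ddit3 was the least abundant, at 8.70 CPM per kilobase in Sgo1-/+ libraries and 12.0 in wild type libraries, and still ranked 3407 of 13695 genes.

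The chaperones were at nearly the same mean level in both genotypes. Hspa5 (ENSMUSG00000026864, chr2:34771970-34776531 in build mm10), which encodes BiP, the main Hsp70 chaperone of the ER, ran from 221 CPM over a median of 238 to 266 in Sgo1-/+ libraries, and from 173 over 238 to 314 in wild type libraries. The Sgo1-/+ values lay inside the wild type range, in which replicates 2, 4 and 6 were high and replicates 1, 3 and 5 low. The log2 change was -0.03 ± 0.15 (SE; 95% interval -0.35 to 0.30, adjusted p = 0.972 by edgeR's quasi-likelihood test). It was -0.17 without the 3 libraries rich in the abundant rows and -0.14 with the share of these rows as a covariate. Its SD on the log2 scale was 0.10 among Sgo1-/+ libraries and 0.36 among wild type libraries. This difference in spread was not tested for Hspa5 alone. Over the 10 members, 6 had the smaller SD in Sgo1-/+, or 60%, against 59.4% of all genes.

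Hsp90b1 (ENSMUSG00000020048, chr10:86690209-86705509), the ER member of the Hsp90 family also called GRP94, ran from 279.6 CPM over 325 to 373 in Sgo1-/+ libraries and from 242 over 315 to 393 in wild type libraries. The genotypes differed by a log2 change of 0.0015 ± 0.13 (95% interval -0.28 to 0.29, adjusted p = 0.999 by edgeR). A pseudogene on the other strand of this locus, AC152453.2, had 6.32 ± 2.20 CPM in Sgo1-/+ and 7.65 ± 4.58 CPM in wild type, and whether counting used the strand is not given, so reads of the 2 could not be separated. Pdia4 (ENSMUSG00000025823, chr6:47796142-47813512), a disulfide isomerase of the ER, ran from 44.3 CPM over 76.3 to 81.5 in Sgo1-/+ libraries and from 49.3 over 67.1 to 97.8 in wild type libraries. The Sgo1-/+ values were close together apart from replicate 3, which was the lowest of all 12. The log2 change of Pdia4 was 0.01 ± 0.18 (95% interval -0.37 to 0.40, adjusted p = 0.986 by edgeR).

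Within a library the chaperones kept nearly the same ratio in both genotypes. The log2 ratio of Hspa5 to Hsp90b1 counts was -0.42 ± 0.16 in Sgo1-/+ and -0.41 ± 0.21 in wild type (SD, n = 6 each; difference -0.01, exact permutation p = 0.961, two-sided). The log2 ratio of Pdia4 to Hspa5 was -1.78 ± 0.31 in Sgo1-/+ and -1.79 ± 0.15 in wild type (difference 0.01, exact permutation p = 0.944), and without the 3 libraries rich in the abundant rows the difference was 0.13 (exact permutation p = 0.206). These are 2 of 7 ratios computed, for each of which the adjusted p was 0.961.

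Dnajb9 (ENSMUSG00000014905, chr12:44205897-44210068) encodes ERdj4, a J-domain partner of BiP and a target of XBP1. It ran from 36.6 CPM over 48.7 to 70.0 in Sgo1-/+ libraries and from 43.7 over 52.6 to 72.3 in wild type libraries. Only 1 of 6 Sgo1-/+ libraries, replicate 1, lay above the wild type median. Its log2 change was -0.17 ± 0.17 (95% interval -0.53 to 0.20, adjusted p = 0.771 by edgeR).

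Herpud1 (ENSMUSG00000031770, chr8:94386438-94395377) had the smallest p-value of the 10. It encodes HERP, an ER membrane protein of ER-associated degradation, the route by which misfolded proteins are taken out of the ER and destroyed. Its level ran from 40.6 CPM over 54.0 to 65.2 in Sgo1-/+ libraries and from 58.1 over 63.7 to 87.3 in wild type libraries. Sgo1-/+ replicate 6 was the only one of its genotype above the wild type median, and the groups overlapped between 58.1 and 65.2 CPM. The means were 53.5 ± 8.34 CPM in Sgo1-/+ and 66.7 ± 10.4 CPM in wild type (SD, n = 6 each). Its log2 change of -0.32 ± 0.13 (95% interval -0.59 to -0.04) had an adjusted p of 0.530 by edgeR (0.0272 before adjustment), and the exact two-sided permutation p was 0.0195. It did not pass the adjusted threshold.

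Within the 8 libraries without the column suffix the difference in mean log2 CPM of Herpud1 was -0.36 (exact permutation p = 0.0286, the smallest that 4 against 4 libraries allow). Within the 4 libraries with the suffix it was -0.24, a value that could not be tested at 0.05, since 2 against 2 libraries allow no exact permutation p under 0.333. Leaving out any 1 library gave -0.37 to -0.22, with the weakest value without wild type replicate 6 (edgeR adjusted p = 0.631). Without the 3 libraries rich in the 4 abundant rows the log2 change was -0.27 (edgeR adjusted p = 0.468), and with their share as a covariate it was -0.43 (edgeR adjusted p = 0.315). Scaling by library totals alone gave 0.02, but this scaling moved the median of all genes to 0.31, and relative to that median Herpud1 was at -0.29. An antisense gene over Herpud1, Gm15890, was at 0.13 ± 0.083 CPM in Sgo1-/+ and 0.35 ± 0.23 CPM in wild type. The log2 ratio of Dnajb9 to Herpud1 was -0.12 ± 0.32 in Sgo1-/+ and -0.28 ± 0.26 in wild type (difference 0.15, exact permutation p = 0.377). This difference was 0.29 within the libraries without the suffix and -0.12 within those with it, and 0.073 without Sgo1-/+ replicate 1.

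**Figure D2:**
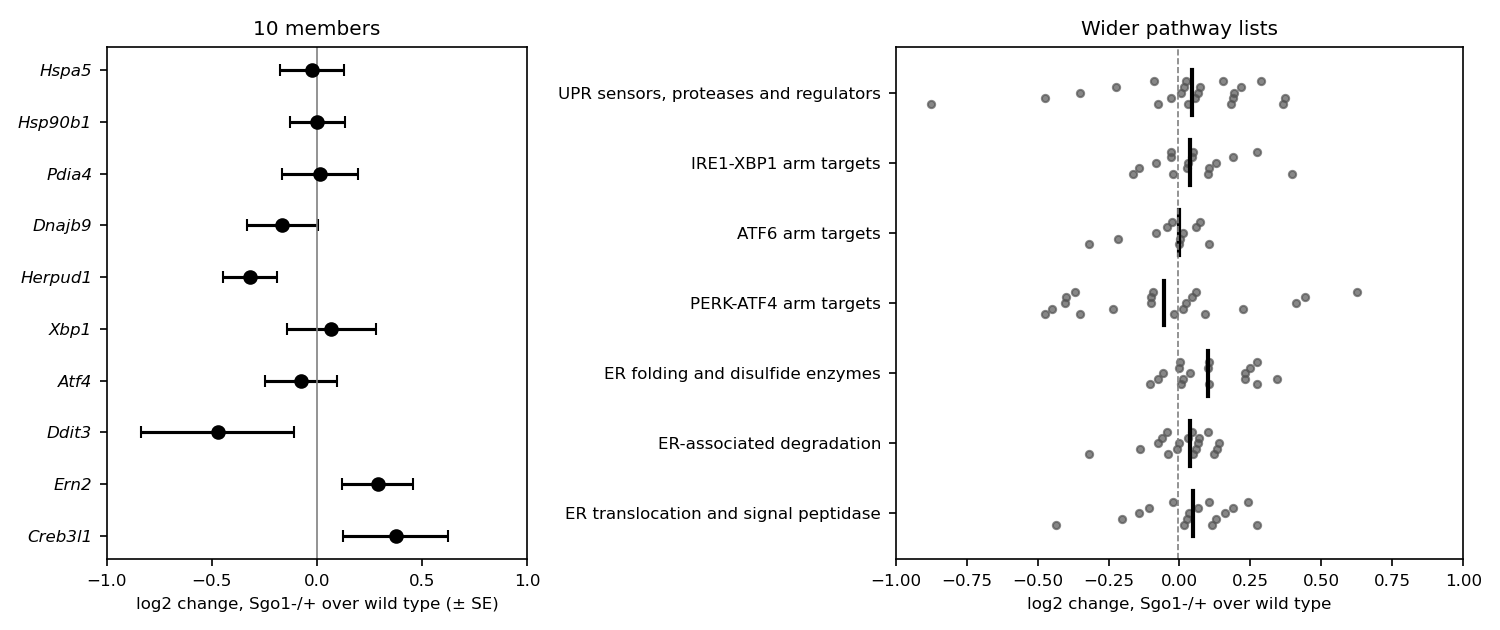
Left, log2 change of each of the 10 members, Sgo1-/+ over wild type, with its SE as whiskers. Right, the log2 change of every tested gene of 7 wider lists of the unfolded protein response (UPR) and the ER, 1 point per gene, with the median as a black line. Among the members Herpud1 at -0.32 has the smallest p, Ddit3 at -0.47 the widest error, and the list medians lie between -0.06 and 0.10.

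The transcription factors of the IRE1 and PERK arms did not differ beyond their spread. ATF6, itself the factor of its arm, was not among the members. Gene counts do not show splicing of Xbp1 mRNA or translation of Atf4 mRNA, the steps by which these factors are mainly switched on. Xbp1 (ENSMUSG00000020484, chr11:5520659-5525893), the factor downstream of IRE1, ran from 71.8 CPM over 111 to 129.7 in Sgo1-/+ libraries and from 53.0 over 109 to 145 in wild type libraries. Its log2 change was 0.07 ± 0.21 (95% interval -0.39 to 0.52, adjusted p = 0.938 by edgeR). Atf4 (ENSMUSG00000042406, chr15:80255184-80257540), the factor downstream of PERK, ran from 91.0 CPM over 116 to 179.9 in Sgo1-/+ libraries and from 100.03 over 125 to 177 in wild type libraries. Replicate 3 of each genotype was the highest of its group. The log2 change of Atf4 was -0.08 ± 0.17 (95% interval -0.45 to 0.29, adjusted p = 0.904 by edgeR).

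Ddit3 (ENSMUSG00000025408, chr10:127290774-127296288) encodes CHOP, a factor induced by ATF4 that is tied to cell death under lasting ER stress. It ran from 8.96 CPM over 11.4 to 34.4 in Sgo1-/+ libraries and from 11.3 over 17.0 to 38.2 in wild type libraries. In 5 of the 6 Sgo1-/+ libraries Ddit3 lay below the wild type median, and replicate 3 was more than all but 1 of the 12 libraries. The log2 change was -0.47 ± 0.36 (95% interval -1.25 to 0.31, adjusted p = 0.704 by edgeR; exact permutation p = 0.203). Single libraries moved this value, to -0.88 without Sgo1-/+ replicate 3 (edgeR adjusted p = 0.149) and to -0.19 without wild type replicate 3. Without the 3 libraries rich in the 4 abundant rows it was -0.43 (edgeR adjusted p = 0.380), and with the share of these rows as a covariate it was 0.0010. The gene Mars lies over Ddit3 on the other strand and had 14.3 ± 2.45 CPM in Sgo1-/+ and 12.2 ± 4.17 CPM in wild type, so that without strand some reads could belong to either. A protein-coding gene on the same strand, ENSMUSG00000116429, also overlaps Ddit3, and strand would not separate its reads.

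The log2 ratio of Ddit3 to Atf4 in a library was -3.16 ± 0.39 in Sgo1-/+ and -2.74 ± 0.51 in wild type (SD, n = 6 each). The difference of -0.43 had an exact permutation p of 0.147. Leaving out Sgo1-/+ replicate 3 gave -0.58 (exact permutation p = 0.0411), and leaving out wild type replicate 4 also gave -0.58 (exact permutation p = 0.0390). Leaving out any of the other libraries gave -0.51 to -0.32, with exact permutation p from 0.0996 to 0.251. The p-values with a library left out were not adjusted.

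The 2 members with a known tie to goblet cells had higher means in Sgo1-/+, within the spread. Their correlations with goblet cell markers in these libraries are given below. Ern2 (ENSMUSG00000030866, chr7:122169893-122186216) encodes IRE1-beta, the form of IRE1 restricted to mucus-secreting epithelia. It ran from 35.9 CPM over 45.5 to 55.2 in Sgo1-/+ libraries and from 26.8 over 37.2 to 51.7 in wild type libraries. In 5 of 6 Sgo1-/+ libraries it lay above the wild type median. The fitted log2 change was 0.29 ± 0.17 (95% interval -0.08 to 0.65, adjusted p = 0.621 by edgeR; exact permutation p = 0.110). It was 0.12 within the libraries without the column suffix and 0.67 within those with it. Without the 3 libraries rich in the abundant rows it was 0.45 (edgeR adjusted p = 0.353), and with the share of these rows as a covariate 0.39 (edgeR adjusted p = 0.513).

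Creb3l1 (ENSMUSG00000027230, chr2:91982328-92024502) encodes OASIS, a membrane-bound factor that is released by cleavage like ATF6 and is known in mice for goblet cell maturation in the large intestine. It ran from 103 CPM over 176 to 241 in Sgo1-/+ libraries and from 65.1 over 134 to 197 in wild type libraries. Again 5 of 6 Sgo1-/+ libraries lay above the wild type median, the exception being replicate 3. A log2 change of 0.37 ± 0.25 was fitted (95% interval -0.16 to 0.91, adjusted p = 0.663 by edgeR; exact permutation p = 0.177). It was 0.25 within the libraries without the column suffix and 0.65 within those with it. With the share of the 4 abundant rows as a covariate it was 0.09, and without the 3 libraries rich in these rows 0.42 (edgeR adjusted p = 0.433).

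In bulk mucosa, more cells of a type and more RNA per cell cannot be told apart. The 12 goblet cell markers, all detected, summed to 11398 to 16702 CPM in Sgo1-/+ libraries and 9812 to 14311 CPM in wild type libraries, and none of them passed an unadjusted p of 0.05. The 6 plasma cell markers in the files, of 8 listed, summed to 84.2 to 193 CPM in Sgo1-/+ libraries and 146 to 307 CPM in wild type libraries, and 2 of the 4 tested were lower in Sgo1-/+ at an unadjusted p under 0.05. The crypt and proliferation markers had a median sum of 277 CPM in Sgo1-/+ libraries and 159 CPM in wild type libraries, and 6 of 8 were higher at that p. Absorptive colonocyte markers had a median sum of 10641 CPM in Sgo1-/+ libraries and 14457 CPM in wild type libraries (2 of 8 lower), and enteroendocrine markers 438 CPM in Sgo1-/+ libraries and 388 CPM in wild type libraries (2 of 6 higher). Adipocyte markers had a median sum of 31.9 CPM in Sgo1-/+ libraries and 2.58 CPM in wild type libraries (1 of 2 tested higher), and immediate early genes, which respond to tissue handling, 303 CPM in Sgo1-/+ libraries and 312 CPM in wild type libraries (2 of 6 lower). Over all genes 4.31% were higher and 4.73% lower at an unadjusted p under 0.05. The members were set against goblet and plasma cell markers over all 12 libraries. They were set against the share of the abundant rows over 9, without the 3 libraries where this share was highest. Of these 30 relations none passed adjustment (smallest adjusted permutation p = 0.116, for Pearson's r). That p was shared by Ern2 (r = -0.795) and Creb3l1 (r = -0.742) with the share of the abundant rows. With plasma cell markers it was shared by Hsp90b1 (r = -0.645), Xbp1 (-0.693), Pdia4 (-0.686) and Ddit3 (0.682). Over the 9 libraries these 4 were at -0.411, 0.077, -0.265 and -0.041. With goblet cell markers r over 12 libraries was 0.360 for Ern2 and 0.077 for Creb3l1. The part of the cell markers and of the abundant rows in the values of Ern2, Creb3l1, Ddit3 and the other genes was not tested further.

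The log2 ratio of Ern2 to Ern1, the widely expressed form of IRE1, was 0.54 ± 0.41 in Sgo1-/+ and 0.60 ± 0.70 in wild type (difference -0.06, exact permutation p = 0.879). The log2 ratio of Creb3l1 to Ern2 was 1.87 ± 0.52 in Sgo1-/+ and 1.77 ± 0.64 in wild type (difference 0.11, exact permutation p = 0.740). That of Xbp1 to Ern2 was 1.21 ± 0.43 in Sgo1-/+ and 1.41 ± 0.82 in wild type (difference -0.20, exact permutation p = 0.613). Without the 3 libraries rich in the abundant rows this difference was -0.52 (exact permutation p = 0.0397). The latter p was not adjusted for the 7 ratios, and the subset was chosen after the data were seen.

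**Figure D3:**
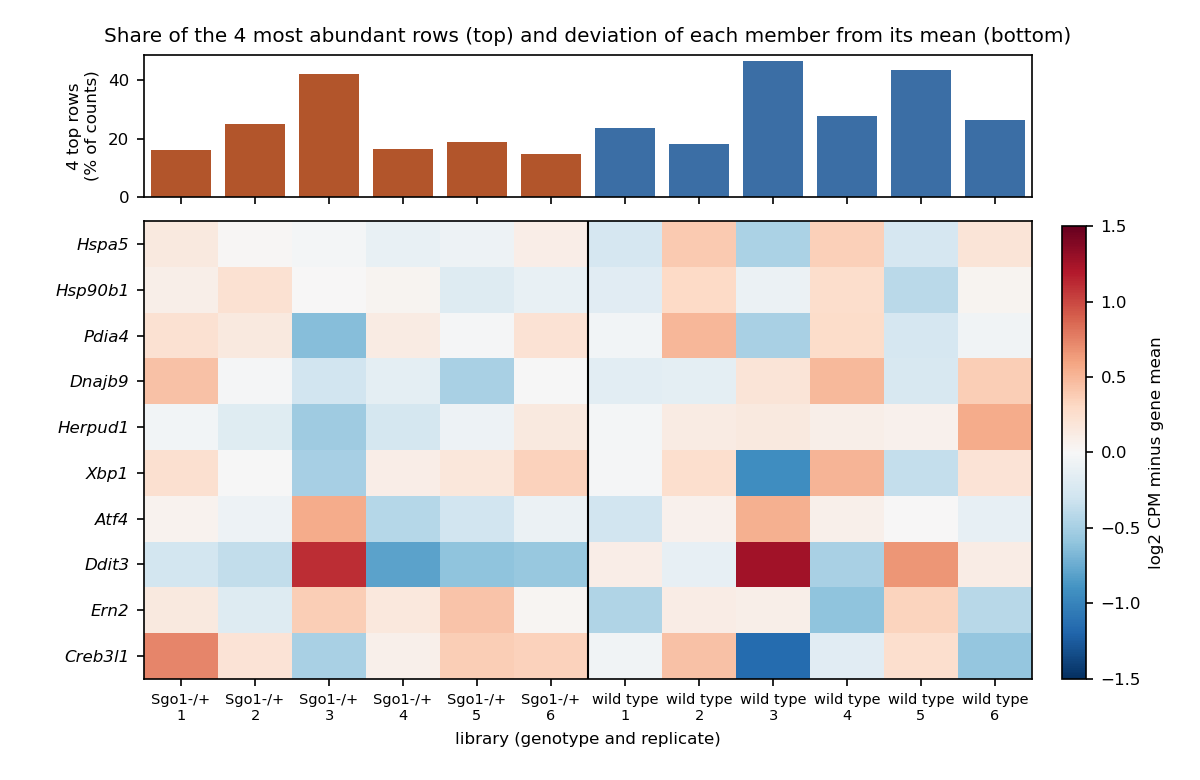
Top, share of counts in the 4 most abundant rows in each library, in percent. Bottom, log2 CPM of each member minus its mean over the 12 libraries, red above and blue below, with Sgo1-/+ left of the line and wild type right of it. The 3 tallest bars, Sgo1-/+ replicate 3 and wild type replicates 3 and 5, stand over the red Ddit3 cells and the blue Xbp1 and Pdia4 cells.

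In the 3 libraries rich in the abundant rows Ddit3 was at 34.4, 38.2 and 25.1 CPM (Sgo1-/+ replicate 3, then wild type replicates 3 and 5), against 8.96 to 17.0 CPM in the other 9. Xbp1 was at 71.8, 53.0 and 79.5 CPM in the same libraries, against 101 to 145 CPM in the other 9. Pdia4 was at 44.3, 49.3 and 58.1 CPM, against 67.0 to 97.8 CPM. Ddit3 was thus above all other libraries, as were 10.2% of all genes, and Xbp1 and Pdia4 were below, as were 8.91% of all genes. The remaining 7 members overlapped between the 3 libraries and the 9. With the share of the abundant rows as a covariate the log2 change between genotypes was -0.23 for Xbp1 and -0.26 for Pdia4, the opposite sign to the fit without it, and neither passed an adjusted p of 0.05 by edgeR.

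Over all 12 libraries 5 of 45 pairs of members had a Benjamini-Hochberg adjusted permutation p under 0.05 for Pearson's r. They were Xbp1 with Pdia4 (adjusted p = 0.0112) and with Hspa5 (0.0129) and Atf4 with Ddit3 (0.0259), with positive r, and Ddit3 with Xbp1 (0.0112) and with Pdia4 (0.0129), with negative r. By Spearman's rho 2 of the 5 passed, Xbp1 with Pdia4 (adjusted permutation p = 0.0234) and with Hspa5 (0.0371). Because the libraries fell into clusters of 3 and 9, the values of r are given over the 9, where none of the 45 pairs passed adjustment, a choice made after the data were seen. In these 9, r was 0.518 for Xbp1 with Pdia4, 0.274 for Atf4 with Ddit3, -0.229 for Ddit3 with Xbp1 and -0.170 for Ddit3 with Pdia4. The highest was Hspa5 with Atf4, with r = 0.862 and rho = 0.85 (n = 9, exact permutation p = 0.00338 for r and 0.00607 for rho, adjusted p = 0.152 and 0.155), and r = 0.855 without the 2 libraries farthest from the median. Over all 12 libraries Pearson's r of this pair turned sign, with r = -0.111 and rho = 0.224 (n = 12, adjusted permutation p = 0.804 and 0.707). Hspa5 with Xbp1 followed at r = 0.758 and rho = 0.80 (n = 9, exact permutation p = 0.0176 and 0.0138, adjusted p = 0.214 and 0.155). The points share the scaling of each library to its own depth.

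**Figure D4:**
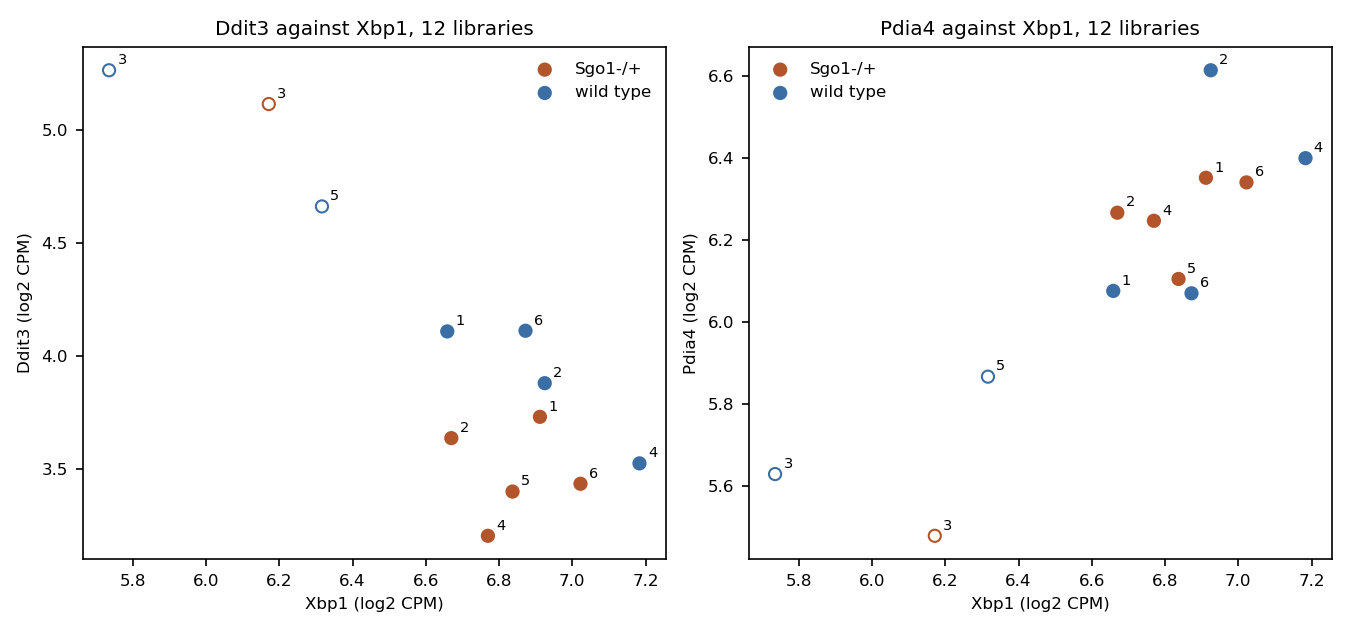
Ddit3 (left) and Pdia4 (right) against Xbp1 in log2 CPM, 1 point per library with its replicate number, Sgo1-/+ in orange and wild type in blue. Open circles are the 3 libraries rich in the 4 most abundant rows, which lie apart from the other 9 on both axes. Among the 9 filled circles r was -0.229 on the left and 0.518 on the right.

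As a description, the genes whose log2 CPM was most like that of a member were sought among 11916 tested genes with a name of their own. For Hspa5 they were Stip1, a co-chaperone linking Hsp70 and Hsp90 (r = 0.950 over 12 libraries, 0.940 over the 9), the signal peptidase subunit Spcs2 (0.910 and 0.849), Fastkd5 (0.900 and 0.828), Ankrd13c (0.882 and 0.775) and Ube2j1, a ubiquitin-conjugating enzyme of ER-associated degradation (0.878 and 0.858). For Ern2 they were Abcc1 (0.949 over 12, 0.955 over the 9), Mlxipl (0.934 and 0.952), Clspn (0.847 and 0.886), Acot9 (0.843 and 0.845) and Clca2 (0.835 and 0.810). For Xbp1 they were the GDP-fucose transporter gene Slc35c1 (0.976 over 12, 0.831 over the 9), Dgcr2 (0.954 and 0.643), Cstb (0.954 and 0.738), Acvr2a (0.950 and 0.738) and Pgam5 (0.943 and 0.822). For Creb3l1 they were Steap2 (0.946 over 12, 0.869 over the 9), Kif18b (0.938 and 0.921), Amigo1 (0.931 and 0.896), Anapc4 (0.926 and 0.803) and Chml (0.921 and 0.784).

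The wider pathway was described by 7 lists, some of which hold members or share genes. Without the members they name 94 genes in the files, of which 91 were tested. None of these passed an adjusted p of 0.05 in edgeR's quasi-likelihood test. At an unadjusted p under 0.05, 1 was higher and 3 were lower in Sgo1-/+, or 4.40% together, against 9.04% of all genes. The log2 change was positive for 58 and negative for 33, or positive for 63.7% of them against 49.0% of all genes, with a median of 0.04, against -0.01 over all genes. The share of positive changes was not tested.

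Among 22 sensors and regulators, members included, 0 were higher and 2 lower at an unadjusted p under 0.05. Together this was 9.09%, against 9.04% of all genes. Both lower genes are named here with Ern1. Ppp1r15a, which encodes GADD34, the phosphatase subunit that ends the translation block set by PERK, was at 7.62 to 11.6 CPM in Sgo1-/+ libraries and 10.2 to 14.9 CPM in wild type libraries (log2 change -0.35 ± 0.15, adjusted p = 0.530 by edgeR; exact permutation p = 0.0130). Creb3l3, a relative of Creb3l1, was at 3.10 to 5.79 CPM in Sgo1-/+ libraries and 2.89 to 16.6 CPM in wild type libraries (log2 change -0.88 ± 0.36, adjusted p = 0.530 by edgeR; exact permutation p = 0.106). Ern1 averaged 32.04 ± 7.08 CPM in Sgo1-/+ and 24.8 ± 6.22 CPM in wild type (log2 change 0.36 ± 0.19, adjusted p = 0.572 by edgeR).

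Of 16 targets of the IRE1-XBP1 arm none was at an unadjusted p under 0.05, against 9.04% of all genes. Those with the smallest p were the signal peptidase subunit Spcs3 (log2 change 0.27 ± 0.15), the COPII coat gene Sec24d (0.39 ± 0.28) and the translocon-associated Ssr1 (0.13 ± 0.11). Of 11 tested ATF6 targets only the member Herpud1 reached that p, or 9.09% of them against 9.04% of all genes. The chaperone genes Creld2 (-0.21 ± 0.16) and Manf (0.07 ± 0.17) and the isomerase gene Pdia6 (0.11 ± 0.21) had the smallest p of the others, and Derl3 had too few counts to be tested (at most 14 in a library).

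Of 20 tested targets of the PERK-ATF4 arm 1 was higher, Aars, and 1 lower, Ppp1r15a, at an unadjusted p under 0.05. Together they were 10% of the list, against 9.04% of all genes. Aars, the alanyl-tRNA synthetase gene, was at 49.7 to 68.0 CPM in Sgo1-/+ libraries and 47.0 to 59.1 CPM in wild type libraries (log2 change 0.22 ± 0.096, adjusted p = 0.536 by edgeR; exact permutation p = 0.0260). Nupr1, a stress-induced chromatin regulator, averaged 227 ± 42.9 CPM in Sgo1-/+ and 293 ± 72.8 CPM in wild type (log2 change -0.37 ± 0.18, adjusted p = 0.551 by edgeR). Trib3 and Chac1, known targets of ATF4 and CHOP, had at most 6 and 19 counts in a library and were not tested.

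Among 17 ER folding and disulfide enzymes none reached an unadjusted p under 0.05, against 9.04% of all genes. The log2 change was positive for 13, or 76.5% against 49.0% of all genes, with a median of 0.10. These 13 values ran down to 0.00015, and the share was not tested. The 3 with the smallest p were Ero1lb (0.23 ± 0.20), Qsox1 (0.25 ± 0.23) and Pdia5 (0.34 ± 0.33). Among 18 tested genes of ER-associated degradation Herpud1 alone reached that p, or 5.56% of them against 9.04% of all genes. The derlins, membrane proteins of that pathway, Derl1 (0.14 ± 0.11) and Derl2 (-0.14 ± 0.13) and the mannosidase gene Man1b1 (0.13 ± 0.13) followed.

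Of 16 genes of ER translocation and signal peptidase 1 was lower at an unadjusted p under 0.05, Sec62, and none was higher at that p. This was 6.25% of them, against 9.04% of all genes. Sec62, a subunit of the post-translational translocon, was at 112 to 144 CPM in Sgo1-/+ libraries and 138 to 164 CPM in wild type libraries (log2 change -0.20 ± 0.093, adjusted p = 0.548 by edgeR; exact permutation p = 0.0152). Sec11a, a catalytic subunit of signal peptidase, averaged 35.7 ± 2.99 CPM in Sgo1-/+ and 30.1 ± 5.205 CPM in wild type (log2 change 0.24 ± 0.12, adjusted p = 0.559 by edgeR). The genotypes overlapped in every gene named from these lists.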

How the data were processed

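The messenger RNA of the mucosa was prepared with a TruSeq V2 kit and run on an Illumina MiSeq, per the labels' protocols. The submitters' processing notes name the build mm10 and DESeq. Aligner, counter and strand setting were not given in the sources used here. Of the 2 deposited columns, the log2 one was not used, and the raw one was taken to hold estimated counts, per the file headers and because 69.6% of its values above 0 were fractional. The 10 genes and all lists were chosen with earlier results of these data known.

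Counts were rounded. Rows with no Ensembl identifier (505 of 38592, holding 1.79% to 5.40% of the counts of a library) were dropped. No 2 libraries were identical, and replicates differed by a chi-square of at least 14.7 per degree of freedom. Genes were tested with edgeR 4.0.16 (R 4.3.3) (TMM factors, glmQLFit, glmQLFTest, with filterByExpr at a minimum count of 10 and total of 15), leaving 13889 genes, over all of which p-values were adjusted by Benjamini-Hochberg. The SE is the log2 change divided by the square root of F, and its 95% interval uses the t distribution. Log2 CPM used a prior count of 2 and ratios added 0.5 counts. Exact two-sided permutation tests of single values ran over 924 arrangements of 12 libraries, or fewer in subsets, and correlations with marker lists used 100000 permutations. Level per length used exon lengths of GENCODE M21. limma-voom 3.58.1, DESeq2 1.42.0 and other scalings, filters and library subsets were alternatives. Leaving out the 3 libraries rich in the abundant rows, also for the correlations between members and with the share of these rows, was chosen after seeing the data.

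Named genes are the 10 members, the 3 others with the smallest p in each list at a mean of at least 5 counts, and the 5 genes most like 4 of the members. Crebrf, Mzb1 and Igha were not analysed here. The edgeR step was checked on simulated counts.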

Additional observations from a re-analysis of the deposited data

Results flagged for a closer look

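Among 20 groups of 6 libraries (10 genes in 2 genotypes) 3 held a library far from the others by Dixon's gap over the range of the group. Chance alone flags about 1 in 20 such groups. Ddit3 in Sgo1-/+ replicate 3 was at 34.4 CPM, and the other 5 Sgo1-/+ libraries were at 8.96 to 13.02 CPM. Pdia4 in the same library was at 44.3 CPM, and the other 5 were at 68.6 to 81.5 CPM. The 4 most abundant rows took 42.2% of the counts of this library, and their part in both values was not tested. Herpud1 in wild type replicate 6 was at 87.3 CPM, and the other 5 wild type libraries were at 58.1 to 65.6 CPM. The 4 most abundant rows took 26.5% of the counts of that library.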

How the results depend on the processing

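The count of genes at an adjusted p of 0.05 was 0 in the edgeR fit and 0 when any 1 library was left out, with a lowest and highest of 0. It was 30 with DESeq2, and 1 both with the share of the 4 most abundant rows as a covariate and within the libraries with the column suffix. At an unadjusted p under 0.05, 1256 genes became 2390 without the filter, 556 and 1995 within the libraries without and with the suffix, and 830 to 2577 when 1 library was left out, the highest without Sgo1-/+ replicate 3 and the lowest without Sgo1-/+ replicate 5. Members at that p were 1 of 10, against 0 without the filter and 0 to 2 when 1 library was left out. They were 2 with the covariate, where 1361 of 13889 genes reached it, and 3 within the libraries with the suffix (1995 of 14283 genes). Without the 3 libraries rich in the abundant rows they were 2, and 1668 of 14320 genes reached it. No member passed an adjusted p of 0.05 under any alternative run. Library totals alone moved the median log2 change of all genes to 0.31, and split the calls at unadjusted p into 1537 higher and 157 lower, against 599 higher and 657 lower with TMM factors. Under that scaling Hspa5 became 0.25, Atf4 0.23, Dnajb9 0.18 and Herpud1 0.025. Relative to the median these are -0.06, -0.08, -0.14 and -0.29.

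Some log2 changes turned sign. Hspa5 was 0.016 with limma-voom, 0.00047 without the filter and 0.013 within the libraries with the suffix. Hsp90b1 was -0.0046 with DESeq2, -0.0036 with median-of-ratios factors, -0.053 with the covariate, -0.0020 with the suffix as covariate, -0.10 within the libraries with the suffix and -0.10 without the 3 libraries rich in the abundant rows. With the covariate Xbp1 was -0.23, Atf4 0.10, Ddit3 0.0010 and Pdia4 -0.26. Without the 3 libraries Xbp1 was -0.063 and Pdia4 -0.033, and within the libraries without the suffix Pdia4 was -0.050. Within those with it Atf4 was 0.013. Without these 3 libraries the log2 ratio differences of Ern2 to Ern1 and of Creb3l1 to Ern2 were 0.20 and -0.019. The correlation of Atf4 with Ddit3 over 12 libraries was 0.796 and with library totals alone -0.048. The cause of these shifts was not tested.

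Leaving out 1 library gave -0.11 to 0.075 for Hspa5, -0.069 to 0.084 for Hsp90b1, -0.063 to 0.19 for Xbp1, -0.22 to 0.042 for Atf4, -0.88 to -0.19 for Ddit3, -0.067 to 0.15 for Pdia4, 0.24 to 0.54 for Creb3l1, 0.21 to 0.39 for Ern2, -0.28 to -0.073 for Dnajb9 and -0.37 to -0.22 for Herpud1. For the log2 ratio differences it gave -0.084 to 0.035 for Hspa5 to Hsp90b1, -0.036 to 0.13 for Pdia4 to Hspa5, 0.073 to 0.25 for Dnajb9 to Herpud1, -0.58 to -0.32 for Ddit3 to Atf4, -0.21 to 0.11 for Ern2 to Ern1, -0.13 to 0.29 for Creb3l1 to Ern2 and -0.42 to 0.0079 for Xbp1 to Ern2.

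The samples share only replicate numbers: the deviations of same-numbered samples correlated at -0.298 to 0.454, and 0 of 6 samples correlated best with its own number. With the replicate number as a block 0 of 13889 genes passed an adjusted p of 0.05. An unadjusted p under 0.05 was reached by 1644 of the 13889, against 1256 without the block. Of the 10 members 3 then reached the unadjusted p (Ddit3 at -0.51, Creb3l1 at 0.42 and Herpud1 at -0.32), and Hspa5 was 0.0091.

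Among the members Ddit3 had the fewest counts and the widest 95% interval. Creb3l1, with 259 to 2504 counts in a library, had the next widest. Whether depth set these widths was not tested.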
